A study of Homo sapiens with 12 samples.

Results

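The transcripts described here come from 10 genes of the activator protein 1 (AP-1) family and the immediate early response: FOS, FOSB, FOSL1, FOSL2, JUN, JUNB, JUND, EGR1, IER3 and DUSP1. They were chosen by name, and all 10 were found by symbol among the 22730 genes listed in both count tables of the series. RNA was sequenced from 12 libraries of human hepatoma lines, in 4 groups of 3. In the line labelled Hep-3B and in Huh-7, control cells received a negative-control siRNA and the compared cells one directed at ARD1 (siARD1). The gene's present symbol is NAA10. Its product is the catalytic part of NatA, the enzyme complex that acetylates protein N termini, and the series concerns its part in glutathione synthesis and ferroptosis evasion. No other genotype or agent is named in the labels. The labels do not give the siRNA sequence or dose, the serum conditions, or the time between transfection and harvest, and they do not say whether the 3 libraries of a group came from separate cultures. The p-values therefore measure only the spread between these libraries. An exact two-sided permutation test of 3 libraries against 3 cannot give a p under 0.1, so calls rest on a model fitted across all genes.

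AP-1 is a dimer of basic leucine zipper proteins. FOS family proteins (FOS, FOSB, FOSL1, FOSL2) bind DNA as partners of a JUN family protein (JUN, JUNB, JUND), while JUN proteins can also pair with each other. Immediate early genes are transcribed within minutes of a growth factor or stress signal without new protein synthesis, through serum response factor and Ets cofactors at CArG boxes (FOS, EGR1) and through CREB, ATF and AP-1 proteins at sites related to the cyclic AMP response element (FOS, JUN, DUSP1). DUSP1 is a phosphatase that switches off MAP kinases, EGR1 is a zinc finger activator and IER3 is a survival gene also driven by NF-kB. In the liver, JUN is known for its part in hepatocyte proliferation during regeneration. Most of these mRNAs are short-lived, so their steady level follows recent transcription closely.

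The upstream sequences of 5 members are shown because EGR1 and FOS were lower after siARD1 in both lines, whereas JUN, JUND and DUSP1 responded differently in the 2 lines. JUNB also responded differently in the 2 lines, but its sequence is not shown. The fall of EGR1 differed in size between the lines. RefSeq entries (GRCh38.p14) matched 8 of the 10 members by symbol, and the starts used here are theirs. Gene positions given further below are from GENCODE v29, where starts can differ. By those positions the whole JUN sequence lies inside the JUN gene, and the last part of the FOS sequence inside FOS. Each sequence is the 250 bases before the annotated start, 5′ to 3′ on the gene's strand, at chr5:138465229-138465478 (plus strand) for EGR1, chr14:75278578-75278827 (plus strand) for FOS, chr1:58784048-58784297 (minus strand) for JUN, chr19:18281623-18281872 (minus strand) for JUND and chr5:172771196-172771445 (minus strand) for DUSP1. Capitals mark matches on either strand to the CArG box, TGACGTCA, TGACATCA or TGACG, the last of which is contained in TGACGTCA.
EGR1: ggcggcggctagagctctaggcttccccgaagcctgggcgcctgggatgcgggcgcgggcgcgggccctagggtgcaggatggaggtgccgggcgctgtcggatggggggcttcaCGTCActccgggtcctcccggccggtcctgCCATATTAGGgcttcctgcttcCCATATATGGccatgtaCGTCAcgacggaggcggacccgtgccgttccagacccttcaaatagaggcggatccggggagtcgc
FOS: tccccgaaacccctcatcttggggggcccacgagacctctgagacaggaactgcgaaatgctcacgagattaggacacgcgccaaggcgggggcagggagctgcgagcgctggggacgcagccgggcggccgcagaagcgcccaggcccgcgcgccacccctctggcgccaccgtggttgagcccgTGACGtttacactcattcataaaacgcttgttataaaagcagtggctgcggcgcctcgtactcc
JUN: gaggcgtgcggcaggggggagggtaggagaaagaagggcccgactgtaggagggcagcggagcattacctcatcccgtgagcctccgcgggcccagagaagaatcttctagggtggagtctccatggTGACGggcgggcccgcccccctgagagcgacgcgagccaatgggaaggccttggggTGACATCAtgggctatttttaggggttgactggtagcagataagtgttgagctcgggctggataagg
JUND: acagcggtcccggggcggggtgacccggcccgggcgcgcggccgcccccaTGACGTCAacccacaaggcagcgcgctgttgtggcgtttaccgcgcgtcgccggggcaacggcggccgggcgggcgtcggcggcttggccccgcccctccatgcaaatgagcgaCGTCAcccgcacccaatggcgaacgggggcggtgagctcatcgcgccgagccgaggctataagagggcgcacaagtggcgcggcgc
DUSP1: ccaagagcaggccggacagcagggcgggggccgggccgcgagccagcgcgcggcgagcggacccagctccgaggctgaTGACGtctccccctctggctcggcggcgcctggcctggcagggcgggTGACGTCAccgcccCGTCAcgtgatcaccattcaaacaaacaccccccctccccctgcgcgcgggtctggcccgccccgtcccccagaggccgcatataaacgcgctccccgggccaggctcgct
Counted back from the start, with -1 as the base before it, EGR1 held CArG boxes at -105 to -96 and at -83 to -74, and 0 of the other matched members held one, against 1.14% of 27305 promoter windows of the same length. TGACGTCA stood at -200 to -193 in JUND and at -125 to -118 in DUSP1 (1.77% of all windows). TGACATCA stood at -67 to -60 in JUN (2.45% of all windows). The shorter TGACG was in 8 of 8 matched members, against 21.7% of all windows, and TGANTCA, the core AP-1 motif, was in 0 of 8, against 6.60%. In JUNB, TGACG stood at -137 to -133, with no match to TGACGTCA or TGACATCA, so the longer matches were not shared by all members whose response differed. These are matches of letters in these windows, not measured binding sites, and they cover no sequence farther upstream.

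Total counts ran from 17327615 to 25960237 per library. NAA10 fell from 51.6, 62.2 and 62.5 to 11.5, 16.6 and 15.4 CPM in the libraries labelled Hep-3B, and from 156, 147 and 191 to 12.3, 9.23 and 9.37 CPM in Huh-7. CPM here are counts relative to library size, scaled with TMM factors over the 12 libraries. Hepatocyte markers went against the Hep-3B label: the 10 markers listed summed to 453 to 544 CPM in its controls and 243 to 257 after siARD1, against 27110 to 29071 and 20436 to 24464 in Huh-7. ALB averaged 5.37 CPM and AFP 1.75 CPM in the controls labelled Hep-3B, so these libraries are named by their label only. Of the hepatocyte markers 6 of 7 tested fell in that line, against 15.3% of all tested genes, and 4 of 10 in Huh-7, against 18.9%. Markers of other cell types summed to less. Their sums in Hep-3B and then Huh-7 libraries were at most 185 and 39.5 CPM for fibroblasts (no COL1A2 counts in the table of the former), 81.0 and 13.6 for endothelium, 3.75 and 107 for leukocytes (no CD3E counts in either table, and LYZ at 80.1 CPM in the Huh-7 controls) and 17.1 and 7.84 for squamous epithelium (no KRT5 counts in either table). The sum of the 4 squamous markers with counts also differed in the libraries labelled Hep-3B (14.5 to 17.1 CPM in controls, 9.69 to 10.3 after siARD1). That sum was almost all TP63, which averaged 15.9 CPM in those controls. The sum of the 6 fibroblast markers differed in Huh-7 (34.2 to 39.5, then 27.2 to 28.95). Most of that fall was in COL1A2, which averaged 24.2 CPM in the controls and 15.2 after siARD1. Means of COL1A1 and COL3A1 were also lower there. Means of LUM (1.07, then 1.56) and PDGFRB (7.85, then 8.25) were higher, and DCN had almost no counts. Sums also did not overlap for leukocyte markers in the former line (2.43 to 3.75, then 1.76 to 2.40) and endothelial markers in Huh-7 (12.5 to 13.6, then 10.2 to 12.4). The part of these markers in the results was not tested. In bulk RNA a change in every cell and a change in the share of cells that express a gene cannot be told apart.

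The first comparison asked which members responded to siARD1 in the line labelled Hep-3B. EGR1, FOS and JUND fell, and 0 members rose. A gene is called changed where edgeR's quasi-likelihood test gave an adjusted p under 0.05. By that rule 3 of 10 tested members changed, against 32.2% of the 15762 genes tested (15.3% lower), so the share of members was near the background. The median log2 fold change of the members was -0.08, against -0.01 over all tested genes.

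EGR1 (ENSG00000120738, GRCh38 chromosome 5, 138465490 to 138469315) held 44.1, 41.6 and 49.0 CPM in the controls labelled Hep-3B and 23.1, 23.5 and 21.9 after siARD1. The groups did not overlap, and every siARD1 library lay near the same level. The mean went from 44.9 ± 3.76 to 22.8 ± 0.836 CPM (SD, n = 3 each). EGR1 thus fell by 0.97 on the log2 scale (SE 0.09, edgeR adjusted p = 1.32e-06). FOS (ENSG00000170345, chromosome 14, 75278774 to 75282230) held 11.8, 15.6 and 15.6 CPM in the controls and 7.86, 7.93 and 7.71 after siARD1. The first control was the lowest of its group and still above each siARD1 library. The log2 fold change was -0.86 (SE 0.13, edgeR adjusted p = 0.000158). JUND (ENSG00000130522, chromosome 19, 18279760 to 18281622), the JUN protein usually present in resting cells, went from 187, 168 and 169 to 125, 126 and 126 CPM. These groups did not overlap either, and JUND fell by 0.48 on the log2 scale (SE 0.06, edgeR adjusted p = 2.87e-05).

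The other 7 members did not pass in the libraries labelled Hep-3B. FOSL1 (ENSG00000175592, chromosome 11, 65892049 to 65900573), which encodes the FOS relative FRA-1, held 30.0, 48.9 and 55.0 CPM in the controls and 59.4, 71.7 and 66.8 after siARD1. The groups did not overlap, as in 45.0% of all tested genes, but the controls spread widely, with the first the lowest. Its log2 fold change was 0.57 (SE 0.23, edgeR adjusted p = 0.111). It passed without control 1 (0.35, adjusted p = 0.00395), without control 3 (0.76, 0.0341) and with both lines in one fit (0.57, 0.0229). IER3 stood at 75.4, 95.2 and 107 CPM and then at 81.5, 88.1 and 76.0, with overlapping groups (-0.17, edgeR adjusted p = 0.259). Without control 1 it passed as lower (-0.30, 0.00456), which together with FOSL1 took the count of changed members from 3 to 5. Log2 fold changes of the rest were 0.09 for FOSL2 (95% interval -0.03 to 0.21), 0.01 for JUN (-0.13 to 0.15), -0.12 for JUNB (-0.25 to 0.01), -0.04 for DUSP1 (-0.32 to 0.25) and 0.04 for FOSB (-0.53 to 0.62). FOSB had 99 counts over the 3 controls, which leaves its interval wide.

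**Figure D1:**
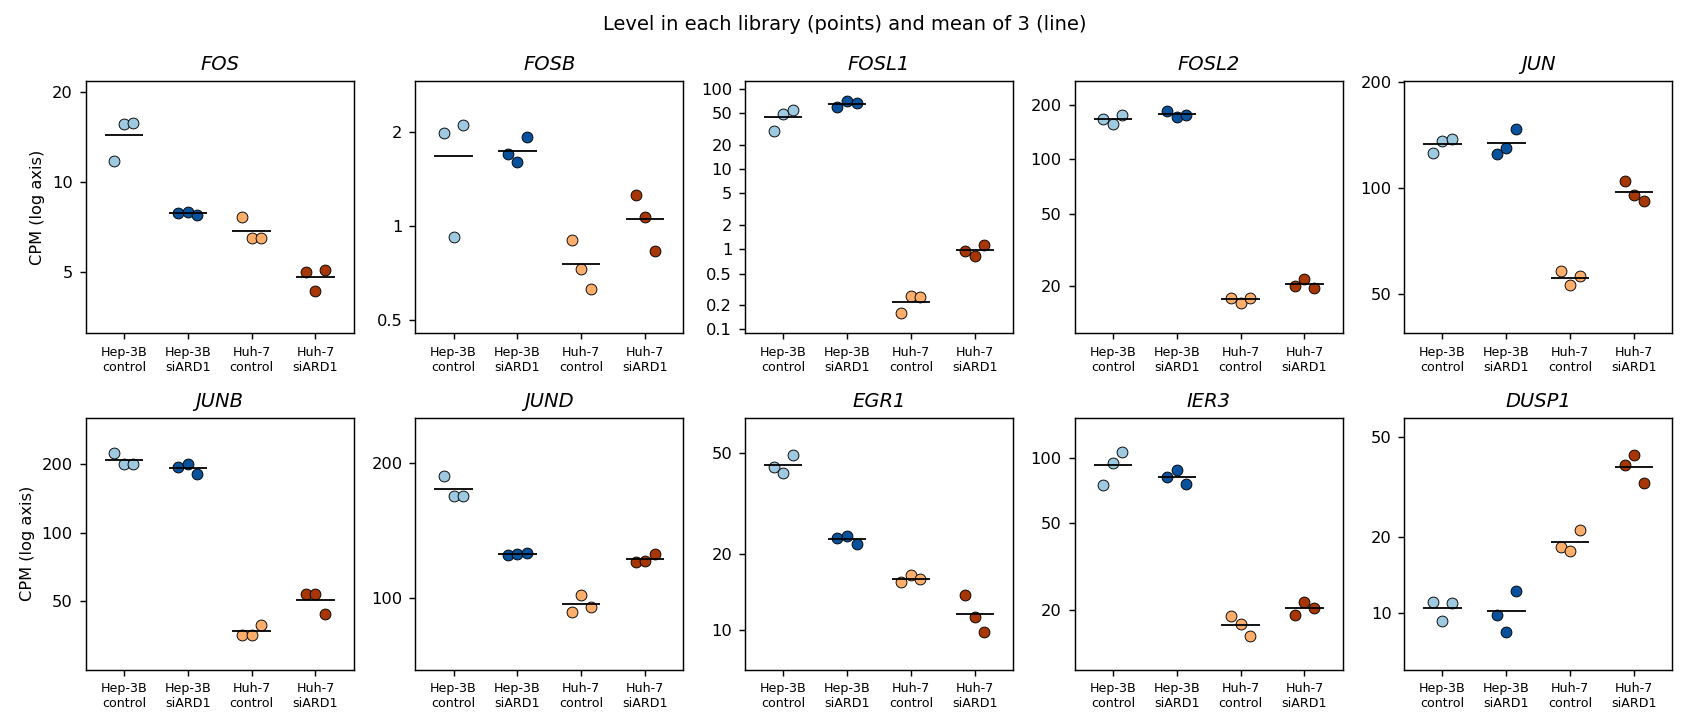
CPM of each member (log axis) in each of the 12 libraries, grouped by labelled line and siRNA. Points are libraries and lines are means of 3. EGR1 and FOS sit lower after siARD1 in both lines, while JUN and DUSP1 sit higher after siARD1 in Huh-7 and overlap in the libraries labelled Hep-3B.

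In Huh-7, siARD1 changed 9 of 10 members, 7 higher and 2 lower. All 3 JUN genes, FOSL1, FOSL2, IER3 and DUSP1 rose, and EGR1 and FOS fell. FOSL1 was tested only through its counts in the siARD1 group. A filter of 1 CPM in 3 libraries left it untested, and 8 members then changed, 6 higher and 2 lower. In the background, 40.1% of 15919 tested genes changed, 21.2% higher and 18.9% lower. The median log2 fold change of the members was 0.41, against -0.01 over all tested genes. Groups did not overlap for 9 members, against 49.7% of all tested genes.

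The JUN family rose as a whole in Huh-7. JUN (ENSG00000177606, chromosome 1, 58780788 to 58784327) held 58.1, 53.1 and 56.2 CPM in the controls and 104, 95.8 and 91.9 after siARD1. Each siARD1 library was well above each control, and the log2 fold change was 0.82 (SE 0.06, edgeR adjusted p = 1.27e-09). JUNB (ENSG00000171223, chromosome 19, 12791496 to 12793315) held 35.7, 35.6 and 39.2 CPM and then 53.5, 54.0 and 44.0. The third siARD1 library was lowest of its group and still above the controls. The log2 fold change was 0.47 (SE 0.08, edgeR adjusted p = 4.73e-05). JUND held 93.5, 102 and 95.6 CPM and then 120, 121 and 125, so that it rose by 0.35 on the log2 scale (SE 0.05, edgeR adjusted p = 2.04e-05). Exons of JUNB share 259 bases with HOOK2 on the opposite strand in GENCODE v29. With the strand setting of the counting unknown, reads from those bases cannot be told apart. HOOK2 had 4048 counts over the 12 libraries and JUNB 29537.

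DUSP1 (ENSG00000120129, chromosome 5, 172768090 to 172771195) showed the largest rise among members with more than 100 counts in each Huh-7 group. It held 18.3, 17.6 and 21.4 CPM in the controls and 38.7, 42.4 and 32.8 after siARD1. The groups lay far apart, and DUSP1 rose by 1.01 on the log2 scale (SE 0.10, edgeR adjusted p = 6.31e-08). IER3 (ENSG00000137331, chromosome 6, 30743199 to 30744554) held 18.8, 17.3 and 15.3 CPM and then 19.0, 21.9 and 20.5. The gap between its groups was narrow, and its log2 fold change was 0.28 (SE 0.10, edgeR adjusted p = 0.0255). It no longer passed without control 3 (0.20, adjusted p = 0.173), without siARD1 library 2 (0.23, 0.107), with upper-quartile scaling (0.21, 0.0845) and with both lines in one fit (0.26, 0.0945).

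Within the FOS family in Huh-7, FOS fell while FOSL1 and FOSL2 rose. FOS held 7.60, 6.51 and 6.49 CPM in the controls and 4.99, 4.32 and 5.05 after siARD1. Its log2 fold change was -0.50 (SE 0.15, edgeR adjusted p = 0.00974), and the call was lost without control 1 (-0.42, adjusted p = 0.0521). FOSL2 (ENSG00000075426, chromosome 2, 28392448 to 28417312), which encodes FRA-2, went from 17.2, 16.1 and 17.2 to 20.04, 21.9 and 19.3 CPM. Its rise was small (0.30, SE 0.09, edgeR adjusted p = 0.0103) and was lost without siARD1 library 2 (0.25, 0.0559). FOSL1 was close to the limit of detection, with 3, 6 and 6 counts in the controls and 20, 17 and 23 after siARD1. It passed the filter on low counts only through the siARD1 group, where it is high, and with no filter its log2 fold change was 2.10. On the CPM scale it went from 0.223 ± 0.0553 to 0.974 ± 0.152 (SD, n = 3 each), higher by 2.09 on the log2 scale (SE 0.43, edgeR adjusted p = 0.000497). FOSB (ENSG00000125740, chromosome 19, 45467995 to 45475179) held 0.903, 0.732 and 0.629 CPM and then 1.26, 1.07 and 0.834, with overlapping groups (0.51, 95% interval -0.15 to 1.17, edgeR adjusted p = 0.240).

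EGR1 also fell in Huh-7, from 15.5, 16.5 and 15.8 to 13.7, 11.3 and 9.82 CPM. The siARD1 libraries were spread over a wider range than the controls and stayed below them. The log2 fold change was -0.44 (SE 0.11, edgeR adjusted p = 0.00342).

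**Figure D2:**
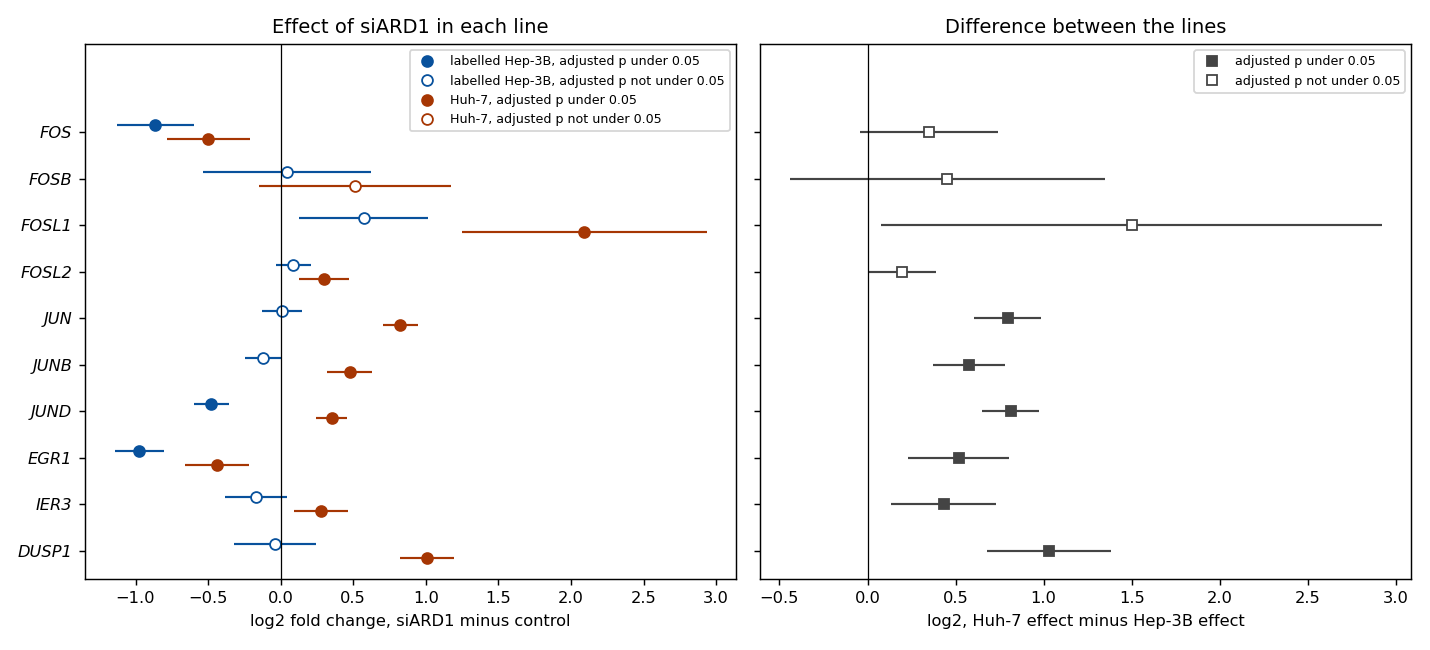
Left, log2 fold change of each member after siARD1 in the libraries labelled Hep-3B (blue) and in Huh-7 (orange), with bars of the 95% interval and filled points for an adjusted p under 0.05. Right, the difference between the lines on the same scale. JUND is filled on opposite sides of 0, at -0.48 and 0.35, and all 10 differences lie to the right of 0, of which 6 pass.

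The effect of siARD1 was then compared between the lines by an interaction test over the 4 groups. It differed for 6 of 10 members, against 31.4% of the 17122 genes tested (15.2% more positive and 16.2% more negative in Huh-7). In each of the 6 the change was more positive in Huh-7. JUND differed by 0.81 (SE 0.08, edgeR adjusted p = 2.79e-08), falling in one line and rising in the other. After siARD1 its level was 125 ± 0.755 CPM in the libraries labelled Hep-3B and 122 ± 2.81 in Huh-7, from 175 ± 10.6 and 97.0 ± 4.38 in the controls (SD, n = 3 each). DUSP1 differed by 1.03 (SE 0.18, 6.56e-05), JUN by 0.79 (SE 0.10, 3.87e-07) and JUNB by 0.58 (SE 0.10, 8.40e-05), all edgeR adjusted p. These 3 passed in Huh-7 and not in the libraries labelled Hep-3B. EGR1 differed by 0.52 (SE 0.15, edgeR adjusted p = 0.00702): its fall was larger in the libraries labelled Hep-3B. That call was lost without siARD1 library 1 of Huh-7 (0.38, 0.0503). IER3 differed by 0.43 (SE 0.15, edgeR adjusted p = 0.0348), a call lost on leaving out any of 8 single libraries (adjusted p 0.0623 to 0.108), 4 labelled Hep-3B and 4 of Huh-7. For FOS the difference was 0.35 (95% interval -0.04 to 0.74, edgeR adjusted p = 0.192) and for FOSL2 0.19 (0.00 to 0.39, 0.137). FOSL1 differed by 1.499 (0.08 to 2.92, edgeR adjusted p = 0.143), and passed without control 1 labelled Hep-3B (1.75, 0.000577), with DESeq2 (1.56, 0.00472) and with a replicate block (1.48, 0.0124). The FOS difference did not pass under any of the 18 alternatives run, and its interval does not exclude a difference of the size seen for EGR1.

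Basal levels were compared in the control libraries. All 10 members differed between the lines, 9 lower and DUSP1 higher in Huh-7, against 80.7% of all tested genes (40.0% lower and 40.7% higher). The control groups did not overlap for any of the 10, nor for 82.0% of all tested genes. The share that differed was thus not far above the background, while the direction was mostly toward the libraries labelled Hep-3B (median log2 difference -1.37, Huh-7 minus Hep-3B, against 0.03 over all genes). Line and preparation of the libraries cannot be told apart in this comparison. FOSL1 showed the widest gap, 44.7 ± 13.1 against 0.223 ± 0.0553 CPM (log2 difference -7.57, SE 0.35, edgeR adjusted p = 3.79e-10). FOSL2 followed (166 ± 9.44 against 16.8 ± 0.627 CPM, -3.30), then JUNB (209 ± 13.9 against 36.8 ± 2.05, -2.50) and IER3 (92.4 ± 15.8 against 17.1 ± 1.74, -2.43). EGR1 (-1.49), JUN (-1.26), FOSB (-1.18), FOS (-1.06) and JUND (-0.85) were lower by less, and DUSP1 was higher (10.4 ± 0.948 against 19.1 ± 2.04 CPM, 0.87). The edgeR adjusted p of these 9 ran up to 0.00178.

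Between genes, levels are compared as CPM per kb of exonic length in GENCODE v29, which counts all annotated exons and not the isoform in use. In the controls labelled Hep-3B the order was JUNB (115), JUND (93.8), IER3 (68.1), JUN (37.6), FOSL1 (23.7), FOSL2 (23.2), EGR1 (14.3), DUSP1 (5.17), FOS (4.42) and FOSB (0.302). FOSL1 and FOSL2 overlapped, and so did DUSP1 and FOS. In the Huh-7 controls the order was JUND (52.1), JUNB (20.2), JUN (15.8), IER3 (12.6), DUSP1 (9.46), EGR1 (5.08), FOSL2 (2.35), FOS (2.12), FOSB (0.136) and FOSL1 (0.118). There FOSL2 overlapped with FOS, and FOSB with FOSL1.

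The makeup of each family follows from these per-length levels. In the controls labelled Hep-3B, FOSL1 made up 45.2% ± 7.17 and FOSL2 45.7% ± 7.10 of the FOS family, and FOS 8.57% ± 0.466 (SD, n = 3). In the Huh-7 controls FOSL2 (49.8% ± 1.74) and FOS (44.8% ± 1.95) made up most of it, with FOSL1 at 2.53% ± 0.728. After siARD1 the share of FOS was 3.88% ± 0.147 and 29.3% ± 2.44, below the controls of its line in each library. The summed FOS family went from 51.6 ± 7.98 to 62.4 ± 2.35 CPM per kb in the former line and from 4.73 ± 0.244 to 5.04 ± 0.0350 in Huh-7. The JUN family sum went from 246 ± 11.6 to 211 ± 3.09 CPM per kb in the libraries labelled Hep-3B and from 88.0 ± 1.63 to 121 ± 3.08 in Huh-7. JUNB was the leading JUN gene in the former (46.6% ± 0.894 in controls) and JUND in Huh-7 (59.1% ± 1.89). These shares and sums are given without a test.

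**Figure D3:**
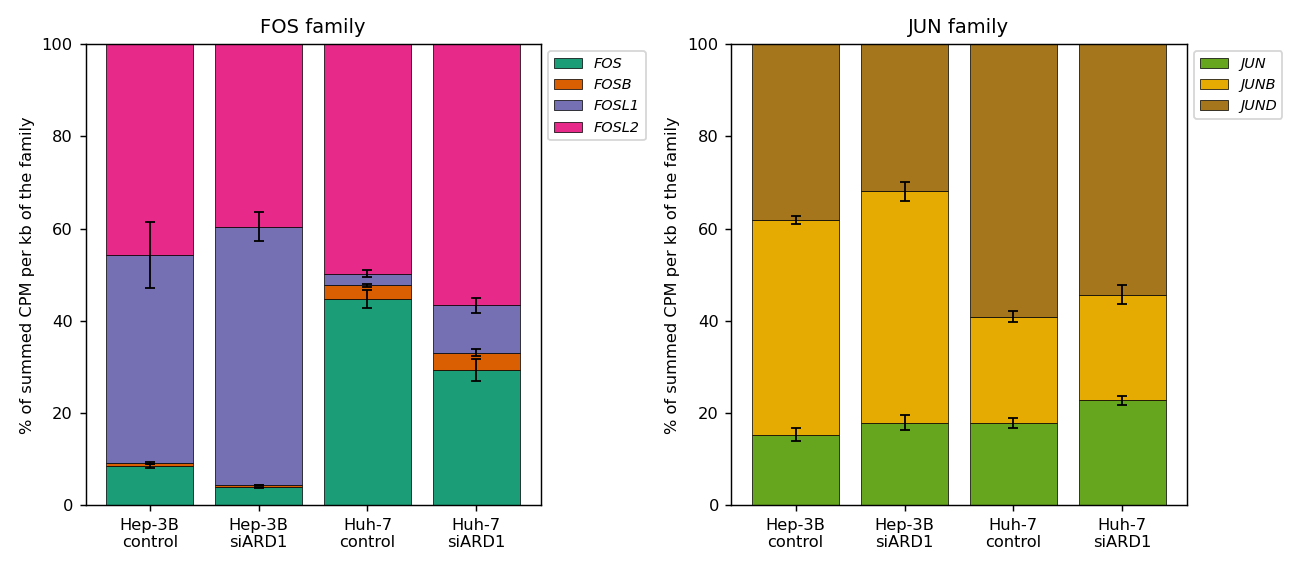
Share of each gene in the summed CPM per kb of the FOS family (left) and JUN family (right), as means of 3 libraries. Error bars are the SD of the share just below the boundary they sit on. FOS makes up 44.8% of its family in the Huh-7 controls and 8.57% in the controls labelled Hep-3B, and FOSL1 2.53% and 45.2%.

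Other genes of the pathway were counted in lists chosen by function. Over all tested genes, 16.8% rose and 15.3% fell in the libraries labelled Hep-3B, and 21.2% rose and 18.9% fell in Huh-7. Among other bZIP proteins that pair with AP-1 subunits, 6 of 12 tested rose and 1 fell in Huh-7 (median log2 fold change 0.30). ATF3, a stress-induced repressor and JUN partner, went from 11.8 ± 0.783 to 23.7 ± 4.15 CPM (SD, n = 3 each; log2 fold change 1.02). JDP2, a repressor that binds JUN, went from 9.48 ± 1.19 to 18.5 ± 2.45 CPM (0.99). MAFF rose by 0.52 and MAF fell by 0.35. In the libraries labelled Hep-3B, 2 of 10 rose and 0 fell (median 0.02), the small Maf genes MAFF (0.33) and MAFK (0.26). Neither call held without control 1, siARD1 library 1 or siARD1 library 3, or with upper-quartile scaling. MAFF was also lost without siARD1 library 2, and MAFK without control 2. In Huh-7 the count of changed partners went from 7 to 4 without siARD1 library 1. The median over all tested genes was -0.01 in both lines.

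Other immediate early genes rose more often than they fell in both lines. In the line labelled Hep-3B, 10 of 24 tested rose and 1 fell (median 0.25), among them TIPARP (0.62), the small GTPase gene RHOB (0.61), the zinc finger gene KLF6 (0.56) and IER5 (0.36). In Huh-7, 14 of 22 rose and 2 fell (median 0.24), led by CCN1, a secreted matrix protein, from 8.65 ± 0.312 to 23.2 ± 1.23 CPM (1.44), and the zinc finger gene KLF4, from 4.797 ± 0.421 to 17.0 ± 2.55 CPM (1.85). PPP1R15A, which restores translation after stress (0.93), and RHOB (0.70) also rose. SRF, the factor that binds CArG boxes, had log2 fold changes of 0.14 (edgeR adjusted p = 0.110) and 0.18 (0.0747). EGR2 stood at 3.89 ± 1.64 and 4.10 ± 0.393 CPM in the libraries labelled Hep-3B and did not pass (edgeR adjusted p = 0.851), EGR3 was not tested in either line, and EGR4 was in neither table as analysed here.

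Signal genes upstream of the members were mixed. Of EGF family ligands and receptors, 5 of 8 rose and 1 fell in the line labelled Hep-3B (median 0.80), with BTC (1.46), TGFA (0.87), HBEGF (0.84) and ERBB2 (0.44, lost without siARD1 library 2 or siARD1 library 3). Without siARD1 library 3 of that line, 3 rose and 0 fell. In Huh-7, 3 of 6 rose and 0 fell (median 0.19). AREG rose from 2.57 ± 0.435 to 7.82 ± 0.802 CPM (1.61), a call lost with both lines in one fit (1.59, adjusted p = 0.0997), EGFR rose by 0.23 and BTC by 0.73, the latter lost without control 1. In the MAP kinase cascade 5 of 17 rose and 5 fell in each line. The libraries labelled Hep-3B had MAP2K3 (0.53) and NRAS (0.43) higher and ARAF (-0.43) lower. Huh-7 had ARAF higher (0.40) and MAP2K6 (-0.53), MAPK3 (-0.36) and MAPK8 (-0.27) lower. The count of 10 changed kinases went to 6 without siARD1 library 1 labelled Hep-3B and, in Huh-7, without control 1 or siARD1 library 3. Of SRF, its Ets and myocardin-related cofactors and the EGR corepressors, 2 of 8 rose and 1 fell in the former line and 1 rose and 2 fell in Huh-7, near the 32.2% and 40.1% of all tested genes that changed. The Ets cofactor gene ELK3 rose in the former (0.61) and fell in Huh-7 (-0.53). ELK4 (0.26) and NAB2 (-0.21) passed in the former line, each lost on leaving out some single libraries, and MRTFA (0.39) and NAB1 (-0.31, lost without control 1) in Huh-7. Without control 3 labelled Hep-3B the count in that line went from 3 to 1.

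Feedback genes of MAP kinase signalling rose in 8 of 17 tested with 1 falling in Huh-7 (median 0.19). PHLDA1 went from 25.5 ± 1.82 to 50.5 ± 8.38 CPM (1.004), and SPRY4 (0.70), the phosphatase gene DUSP4 (0.62) and SPRY2 (0.60) rose with it. In the libraries labelled Hep-3B, 3 of 19 rose and 1 fell (median 0.11), a smaller share than the 32.2% of all tested genes that changed. DUSP7 (0.39), SPRY2 (0.31) and DUSP6 (0.77) were higher and SPRY1 (-0.50) lower, and the DUSP6 call was lost without control 2 or any of the siARD1 libraries. With no filter on low counts 6 rose and 1 fell there. Among genes with known AP-1 sites, 8 of 15 rose and 2 fell in Huh-7 (median 0.21). CXCL8 went from 9.10 ± 0.667 to 47.8 ± 8.89 CPM (2.40) and the osteopontin gene SPP1 from 32.4 ± 2.68 to 117 ± 7.63 (1.87), with CD44 (1.001) and VIM (0.72) also higher. The cytokine gene LIF, chosen after its values were seen, fell there from 18.9 ± 2.81 to 4.55 ± 2.26 CPM (-2.04, SE 0.30, edgeR adjusted p = 0.00205). In the libraries labelled Hep-3B, 6 of 18 rose and 4 fell (median 0.14). The collagenase gene MMP1 went from 35.2 ± 4.55 to 57.7 ± 3.03 CPM (0.72), PLAU rose by 0.52, and SPP1 fell by 0.45. The genes named from these lists, other than LIF, passed edgeR's test with SEs of 0.06 to 0.21 and adjusted p from 9.09e-06 to 0.0401 in the libraries labelled Hep-3B, and with SEs of 0.05 to 0.22 and adjusted p from 2.06e-14 to 0.0119 in Huh-7, apart from SRF, EGR2, EGR3 and EGR4 as stated.

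**Figure D4:**
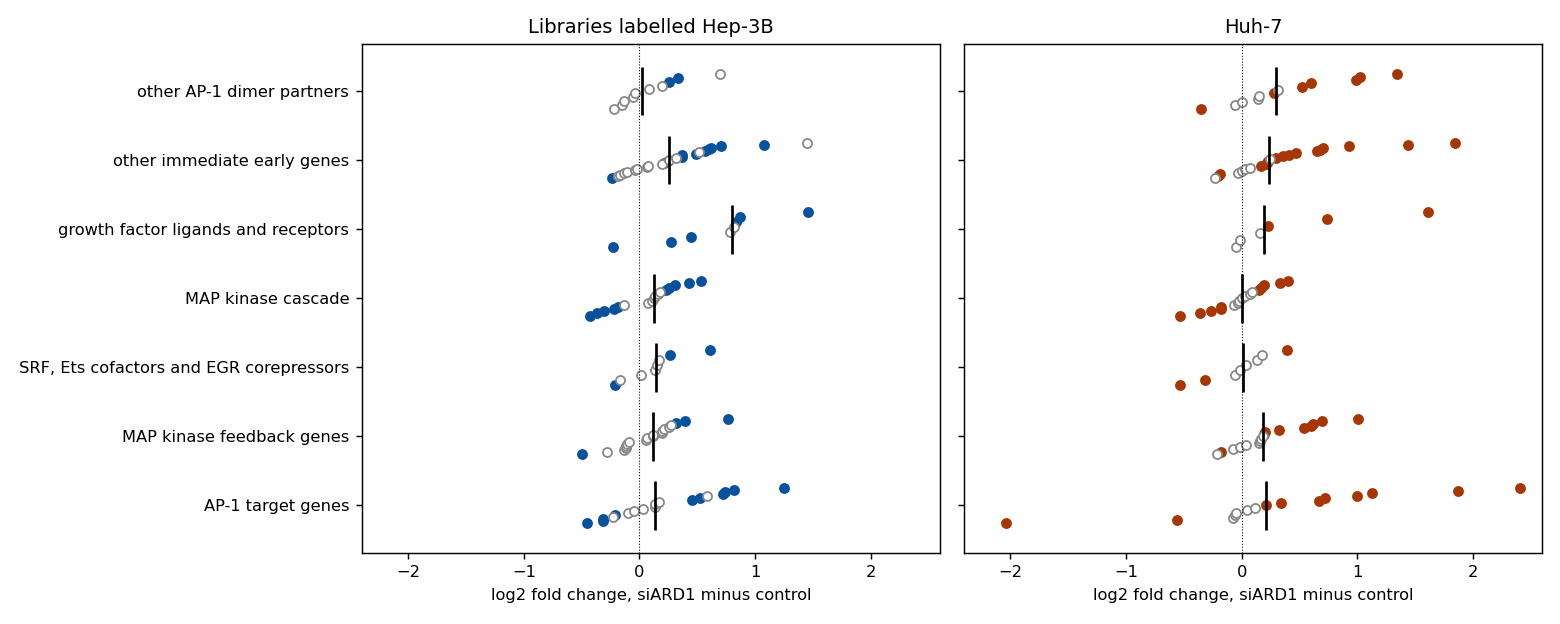
Log2 fold change after siARD1 of each tested gene of the 7 lists, in the libraries labelled Hep-3B (left) and Huh-7 (right). Each point is a gene, filled points have an adjusted p under 0.05, and the vertical bar is the median of the list. The lists differ in size. In Huh-7, filled points right of 0 are 14 of 22 other immediate early genes, 8 of 15 AP-1 targets and 8 of 17 feedback genes. They are 6 of 12 dimer partners, 3 of 6 growth factor ligands and receptors, 5 of 17 genes of the MAP kinase cascade and 1 of 8 of the SRF list. Of all tested genes 21.2% rose there.

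Genes whose pattern was most like that of 3 members were found by the Pearson correlation of log2 CPM, centred within each line, over the 12 libraries and 9764 candidate genes. These values share libraries and the siRNA contrast, and are given as a description. For FOS the nearest were TRIM16 (r = 0.990) and STAT3 (0.981). Both passed as lower in the libraries labelled Hep-3B. Neither passed in Huh-7 (log2 fold changes -0.26 and -0.12, edgeR adjusted p = 0.0902 and 0.0601). For JUN the nearest were SMOX (0.988), the autophagy receptor gene SQSTM1 (0.976) and CLTA (0.972). Each of them passed as higher in Huh-7 (log2 fold changes 0.82, 1.41 and 0.52) and not in the libraries labelled Hep-3B (-0.01, -0.06 and 0.03). For EGR1 the nearest were ZNF740 (0.965), ARHGEF39 (0.964) and ARNT (0.962), whose log2 fold changes were -0.23 to -0.44 in the libraries labelled Hep-3B. In Huh-7 ARHGEF39 passed as lower (-0.26), while ZNF740 (-0.09) and ARNT (-0.11) did not pass.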

How the data were processed

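RNA-seq was measured in 12 libraries. Per the labels' protocols, rRNA was removed and a directional kit was used. Per the submitters' processing notes the tools were cutadapt 4.6 and STAR 2.7.11b with GRCh38. Each cell line has a deposited table of raw counts by Ensembl ID. How reads were counted (tool, annotation, strand) is not stated there or in the labels. All columns were mapped to a sample by title. Each line was fitted alone in R 4.3.3 with edgeR 4.0.16: filterByExpr (minimum count 10, minimum total 15), TMM factors, a robust quasi-likelihood F-test, and Benjamini-Hochberg adjustment over all tested genes with a threshold of 0.05. The interaction and the basal contrast came from one fit of the 4 groups. SE was derived from the F statistic (absolute log2 change divided by its root), and 95% intervals are normal ones from it. Printed CPM use TMM factors of the 12 libraries and do not enter the tests. Also run were DESeq2 1.42.0, RLE and upper-quartile scaling, 2 other filters, both lines in one fit, a replicate block and each library left out. The fits were tested on simulated data. The members and lists were chosen with earlier results of these data known. The rule names the 10 members, NAA10, up to 4 changed genes per list and line by p, and the 3 genes most like FOS, JUN and EGR1 among those with at least 5 CPM in each line. Some genes that these rules would name are not reported here. Figures used matplotlib 3.10.9.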

Additional observations from a re-analysis of the deposited data

Results flagged for a closer look

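The effect of siARD1 differed between the lines, by the interaction test over the 4 groups, for 6 members, each given as the Huh-7 effect minus the Hep-3B effect on the log2 scale: DUSP1 (1.03), JUND (0.81), JUN (0.79), JUNB (0.58), EGR1 (0.52) and IER3 (0.43). JUND was the member that changed in opposite directions. Opposite changes that passed in both lines, with a difference that passed too, were also seen in 8 genes of the other lists, a selection made after their values were seen. SPP1 (2.30), CD44 (1.19), VIM (1.02), ARAF (0.81) and ZFP36L1 (0.52) fell in the libraries labelled Hep-3B and rose in Huh-7. ELK3 (-1.16), MAPK8 (-0.59) and IER5 (-0.58) rose in the former and fell in Huh-7. The edgeR adjusted p of these differences was under 0.05 in each case. Of all tested genes, 31.4% had a difference that passed, whatever the directions in the 2 lines. The share of all genes with opposite changes that passed in both lines is not given here, so the 8 genes stand without a background.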

How the results depend on the processing

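Of 10 members, 3 changed in the libraries labelled Hep-3B, 3 or 4 under each other setting and 3 to 5 with a library left out. In Huh-7 the 9 changed members became 8 or 9 and 7 to 9, the 6 differences between lines 6 or 7 and 5 to 7, and the 10 basal differences stayed 10. With a library left out, all genes called ran from 3695 to 4922, 5249 to 6137, 4739 to 5579 and 13515 to 14132 in the same order, against 5070, 6388, 5380 and 13821. No called member reversed under any setting run. With upper-quartile scaling 39.7% of calls in Huh-7 were higher, against 52.9% with TMM, and 8 members changed. The filter of 1 CPM left FOSL1 and FOSB untested in Huh-7. The replicate numbers were not taken as pairs: deviations of same-numbered libraries correlated at 0.0344, 0.0652 and 0.0643 in the libraries labelled Hep-3B, where each library correlated best with its own number, and at 0.0520, -0.0646 and 0.00746 in Huh-7. A replicate block took the changed members labelled Hep-3B from 3 to 4, with FOSL1 at 0.59 (edgeR adjusted p = 0.00482), feedback genes called there from 4 to 9, and the differences between lines from 6 to 7. Depth limits FOSB and, in Huh-7, FOSL1.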

Other observations

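In the controls, lists around the members also differed between the lines. Of AP-1 targets, 15 of 18 tested were lower in Huh-7 and 2 higher (median log2 difference -2.03), as were 13 of 19 feedback genes with 3 higher (-0.92) and 14 of 23 other immediate early genes with 7 higher (-1.39), against 40.0% lower and 40.7% higher of all tested genes. In the MAP kinase cascade 7 of 17 were lower and 7 higher (0.01). The EGF family ligand AREG averaged 67.0 ± 34.3 CPM in the controls labelled Hep-3B and 117 ± 25.8 after siARD1 (SD, n = 3 each), and did not pass there (edgeR adjusted p = 0.311).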
